A study of Homo sapiens with 12 samples.

Results

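DNA replication and nucleotide synthesis genes were chosen as 41 named genes that copy chromosomal DNA, make its building blocks or govern entry into S phase. They were 41 of the 19775 genes on the arrays. A probe set is a group of short probes summarized to 1 value. Each gene was read from the probe set with the highest mean over the 12 arrays among those annotated to that gene alone. The genes fell into 6 roles. Origin recognition and helicase loading had 10 members, helicase activation 6, primase and DNA polymerases 9, the sliding clamp, clamp loader and lagging strand enzymes 8, nucleotide synthesis 5 and regulators of the G1/S transition 3. All 41 were above the log2 value of 5 that served as the limit for dim genes in every array, with values from 5.9 for CCNE1 to 13.72 for RRM2.

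The arrays held RNA of Hs578T and BT-20, established human breast cancer cell lines. Every culture had been transfected with the liposomal reagent DOTAP and 200 nM of a DNA oligonucleotide for 24 h, so all groups shared the reagent, and untreated cells were not analysed here. In each line, 2 arrays came from cells given CDH13 M, a methylated duplex from exon 1 of the cadherin gene CDH13, and 2 from cells given CDH13 U, its unmethylated form, 1 of each in set 1 and in set 2. A single array per line came from ODN 2006, a single-stranded CpG oligodeoxynucleotide, and 1 from ODN 2006 CTL, its GpC control. Set 1 was run in array batch 1, and set 2 and the ODN arrays in array batch 2, as the array names give it. The labels call the arrays of a set biological replicates, without saying how the cultures were separated, so p-values measure only the spread between these arrays.

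Replication starts where the origin recognition complex, with CDC6 and CDT1, loads the MCM2 to MCM7 ring on DNA in G1. CDC45 and the GINS complex then join the ring and turn it into the working helicase, with MCM10 assisting. Primase and polymerase alpha lay down primers, polymerases delta and epsilon extend them while held on DNA by the PCNA clamp, and FEN1 and LIG1 trim and seal the fragments of the lagging strand. Ribonucleotide reductase, thymidylate synthase and thymidine kinase supply deoxynucleotides. Cyclin E and the E2F transcription factors drive the G1/S transition, and many replication genes are known E2F targets in mammalian cells, with peak mRNA around the start of S phase.

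The treatments are shown as sequences because they differ in base order, strandedness and CpG content. Capitals mark CpG dinucleotides, and all are written 5′ to 3′.
ODN 2006: tCGtCGttttgtCGttttgtCGtt
ODN 2006 CTL: tgctgcttttgtgcttttgtgctt
CDH13 upper strand: tCGgatCGccCGgcaCGggcagggtgaggg
CDH13 complementary strand: ccctcaccctgccCGtgcCGggCGatcCGa
ODN 2006 and ODN 2006 CTL had 24 bases each, with 4 and 0 CpG dinucleotides. The CDH13 strands had 30 bases and 4 CpG dinucleotides each and were exact complements. In CDH13 M the cytosines of these CpGs were methylated, at positions 2, 7, 11 and 16 of the upper strand counted from its 5′ end.

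Promoters were searched for letters of the E2F site, TTTCCCGC, TTTGGCGC, TTTCGCGC or TTTGCCGC, on both strands and with overlaps counted, over the 250 bases before the RefSeq start. Of the 36 members with an entry, 13 (36.1%) held at least 1, against 2.79% of all 27305 promoters and 4.59% of the 8706 promoters of genes that passed the limit for dim genes. The 36 are described here, and CCNE2, GINS4, MCM4, MCM5 and POLD3 are named only. CCAAT, the box bound by NF-Y, stood in 20 of the 36 (55.6%), in 33.0% of all promoters and in 35.9% of those of genes past the limit. TTTGAA or TTCGAA, letters of the element known from mitotic genes, stood in 2 of the 36 (5.56%), in 14.6% of all promoters and in 9.88% of those of genes past the limit. Match and absence of a match describe letters only. MCM6 held 4 E2F matches, which overlap in pairs, and MCM7 and E2F1 held 2 each.

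The promoters of 5 genes on which the results below turn are given from RefSeq, build GRCh38.p14, with E2F matches in capitals. CDT1 (chr16:88803539-88803788, plus strand), GINS2 (chr16:85688955-85689204, minus strand) and RFC3 (chr13:33817899-33818148, plus strand) held 1 match each, while GINS1 (chr20:25407423-25407672, plus strand) and CCNE1 (chr19:29811741-29811990, plus strand) held 0.
CDT1: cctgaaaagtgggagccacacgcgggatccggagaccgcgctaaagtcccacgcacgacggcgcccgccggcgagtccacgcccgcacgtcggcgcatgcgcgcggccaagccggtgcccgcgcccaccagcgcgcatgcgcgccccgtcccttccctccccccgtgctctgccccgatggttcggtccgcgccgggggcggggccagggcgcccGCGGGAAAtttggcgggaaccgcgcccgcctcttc
GINS2: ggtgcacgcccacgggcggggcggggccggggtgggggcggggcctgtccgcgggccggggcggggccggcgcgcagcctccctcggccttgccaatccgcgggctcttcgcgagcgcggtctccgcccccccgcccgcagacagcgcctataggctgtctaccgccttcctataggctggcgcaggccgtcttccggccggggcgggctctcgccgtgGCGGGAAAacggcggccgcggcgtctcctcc
RFC3: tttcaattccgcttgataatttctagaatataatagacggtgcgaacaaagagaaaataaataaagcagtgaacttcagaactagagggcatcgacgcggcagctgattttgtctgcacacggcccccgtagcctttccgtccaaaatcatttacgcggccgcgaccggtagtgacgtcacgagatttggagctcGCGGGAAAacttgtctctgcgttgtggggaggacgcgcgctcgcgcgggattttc
GINS1: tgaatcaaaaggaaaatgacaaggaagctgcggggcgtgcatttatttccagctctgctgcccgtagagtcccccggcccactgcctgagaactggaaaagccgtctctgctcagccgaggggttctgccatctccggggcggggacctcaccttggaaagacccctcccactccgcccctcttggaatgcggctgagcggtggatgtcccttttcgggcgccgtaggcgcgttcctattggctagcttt
CCNE1: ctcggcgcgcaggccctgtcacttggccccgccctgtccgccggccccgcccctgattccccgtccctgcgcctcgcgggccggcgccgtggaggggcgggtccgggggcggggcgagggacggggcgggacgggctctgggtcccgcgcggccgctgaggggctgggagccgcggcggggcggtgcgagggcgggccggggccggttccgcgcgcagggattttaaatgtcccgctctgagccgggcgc
In CDT1, GINS2 and RFC3 the match was the same run of letters in the same orientation, GCGGGAAA, and it began 35, 31 and 55 bases before the start in that order of genes.

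Hs578T cells were first set against BT-20 cells, to ask whether the replication genes differed between lines. Of the 41 genes, 7 were higher and 15 lower in Hs578T (limma, adjusted p under 0.05 over 10410 genes, 8 arrays of CDH13 M and CDH13 U), which is 22 of 41 (53.7%). Among all genes tested 74.6% were called, 34.4% higher and 40.2% lower. The median of the 41 differences was -0.10 (log2, Hs578T minus BT-20), against -0.09 over all genes. Their sizes ran lower than those of other genes: the median absolute difference was 0.43 for the 41 genes and 0.82 for all genes tested, and 9 of 41 (22.0%) passed a log2 difference of 1, against 42.8% of all genes. No test was made of these shares. Over all 12 arrays, 3 members had every Hs578T value above every BT-20 value and 15 had every one below, which is 18 of 41 (43.9%). Of all genes 65.0% did not overlap, 29.1% above and 35.9% below.

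**Figure D1:**
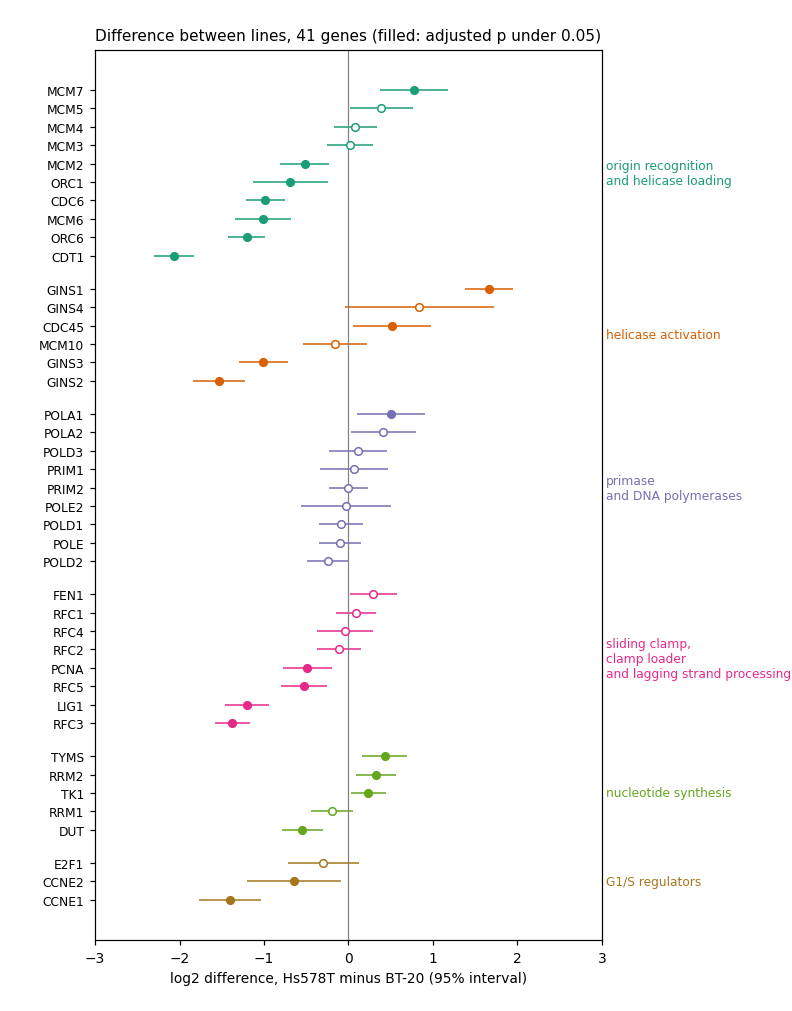
Log2 difference between Hs578T and BT-20 for the 41 genes by role, as points with 95% intervals from the fit of 8 arrays; filled points passed the adjusted p threshold of 0.05. CDT1 lies lowest at -2.06 and GINS1 highest at 1.66, and the primase and polymerase genes stay between -0.24 and 0.50.

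Helicase loading carried the most negative difference among the chosen probe sets of the 41 genes. CDT1, the loading factor that brings the MCM ring to origins, had values from 8.55 to 9.28 with a median of 8.93 in the 6 Hs578T arrays, against 11.04 to 11.15 with a median of 11.10 in the 6 BT-20 arrays. No arrays overlapped, and the difference was -2.06 ± 0.10 (log2, SE), a 0.239-fold level (adjusted p = 3.4e-06). A 2nd CDT1 probe set differed by -1.19, in the same direction but by less. The chosen probe sets of GINS2, CCNE1 and RFC3 differed by more than that, at -1.53, -1.40 and -1.37. CDC6, the ATPase that works with CDT1, differed by -0.99 ± 0.10 and ORC6, a subunit of the origin recognition complex, by -1.21 ± 0.09, both without overlap over 12 arrays (adjusted p = 9.5e-05 and 2.7e-05). ORC1, the largest subunit of that complex, was lower by the test as well, at -0.69 ± 0.18 (adjusted p = 0.012, and 0.056 with set as a block).

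Subunits of 1 complex did not move together between the lines. In the MCM ring, MCM6 ran from 9.92 to 10.39 (median 10.29) in Hs578T and from 11.01 to 11.55 (median 11.47) in BT-20, a difference of -1.01 ± 0.14 (adjusted p = 0.00052). MCM7 ran the other way, from 10.94 to 11.52 (median 11.11) in Hs578T and from 10.36 to 10.72 (median 10.53) in BT-20, a difference of 0.77 ± 0.17 (adjusted p = 0.0050). Neither gene overlapped between the lines. MCM2 was lower by -0.52 ± 0.12 (adjusted p = 0.0072), while MCM3, MCM4 and MCM5 had differences of 0.02, 0.08 and 0.39 that did not pass. For MCM4 this depended on the probe set, since its other bright probe sets differed by 0.54, 0.09 and 0.45. These were not tested singly.

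The 4 GINS genes, whose products form 1 complex of the helicase, showed the same split. GINS1 ran from 10.57 to 11.28 (median 10.87) in Hs578T, against 9.18 to 9.51 (median 9.42) in BT-20. GINS2 ran from 9.84 to 10.54 (median 10.28) in Hs578T, against 11.74 to 12.05 (median 11.87) in BT-20. GINS3 ran from 7.48 to 7.84 (median 7.59) in Hs578T, against 8.46 to 8.74 (median 8.66) in BT-20. The lines did not overlap for any of these 3 genes, and the differences were 1.66 ± 0.12, -1.53 ± 0.13 and -1.01 ± 0.12 (adjusted p = 2.1e-05, 4.4e-05 and 0.00026). GINS4 did not pass, at 0.84 ± 0.37 (adjusted p = 0.076), and its probe set was the least steady of the 41, with BT-20 values spread from 7.06 to 8.34. Its other 3 probe sets reached 5 in at most 1 array. CDC45, the partner of GINS, was higher by 0.52 ± 0.19 (adjusted p = 0.045), and MCM10 differed by -0.16 and did not pass.

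**Figure D2:**
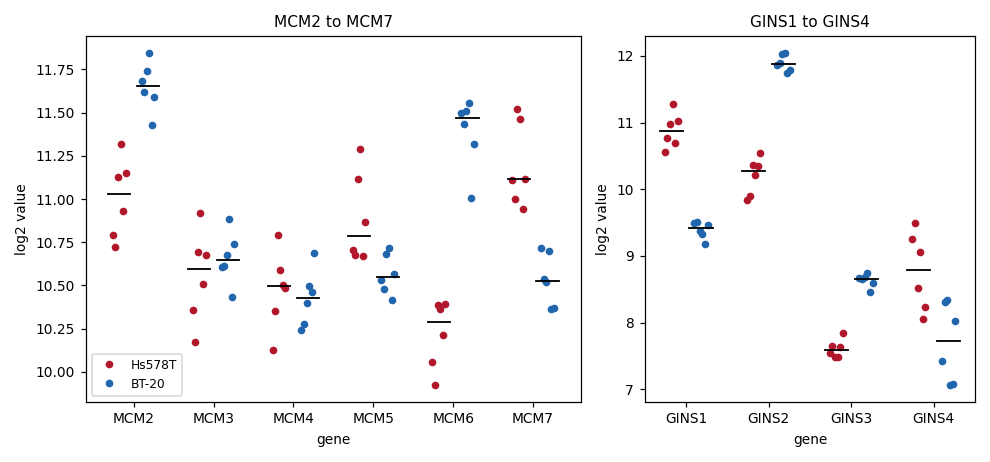
Log2 values of the MCM2 to MCM7 and GINS1 to GINS4 probe sets in the 6 Hs578T arrays (left of each gene) and the 6 BT-20 arrays (right), with the median as a line; levels are not comparable between genes. MCM6, GINS2 and GINS3 lie lower in Hs578T and MCM7 and GINS1 higher, with no overlap.

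Primase and the polymerases differed least. Of 9 genes, 1 passed: POLA1, the catalytic subunit of polymerase alpha, at 0.50 ± 0.17 (adjusted p = 0.030). This call was not steady, since POLA1 differed by 0.66 in set 1, by 0.35 in set 2 and by -0.09 in the ODN arrays. POLA2, the second polymerase alpha subunit, was at 0.41 ± 0.16 (adjusted p = 0.051), and the primase genes PRIM1 and PRIM2 were at 0.06 and 0.00. The polymerase delta genes POLD1, POLD2 and POLD3 and the polymerase epsilon genes POLE and POLE2 lay between -0.24 and 0.11.

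Among the clamp, clamp loader and lagging strand genes, 4 of 8 were lower and 0 higher by limma. RFC3, 1 of the 5 clamp loader subunits, ran from 9.47 to 10.10 (median 9.96) in Hs578T, against 11.14 to 11.46 (median 11.35) in BT-20, a difference of -1.37 ± 0.09 (adjusted p = 1.1e-05), and a 2nd probe set gave -1.40. LIG1, the ligase that seals lagging strand fragments, ran from 6.56 to 7.36 (median 7.16) in Hs578T, against 8.28 to 8.60 (median 8.44) in BT-20, a difference of -1.20 ± 0.11 (adjusted p = 6.6e-05). RFC5 was lower by -0.53 ± 0.11 and its 2 other probe sets gave -1.25 and -1.15, and PCNA, the clamp itself, was lower by -0.49 ± 0.12 (adjusted p = 0.0047 and 0.0092). The loader subunits RFC1, RFC2 and RFC4 differed by 0.09, -0.11 and -0.04 and did not pass, nor did the nuclease FEN1 at 0.29 (adjusted p = 0.056), so that the loader, too, held members that passed and members that did not.

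Nucleotide synthesis had 3 genes higher and 1 lower in Hs578T. TYMS, which makes thymidylate, was higher by 0.43 ± 0.11, RRM2, the small subunit of ribonucleotide reductase, by 0.33 ± 0.10, and the salvage kinase TK1 by 0.23 ± 0.09 (adjusted p = 0.012, 0.021 and 0.045). A 2nd RRM2 probe set, of nearly the same brightness, gave -0.20, and this was the only 1 of 13 further bright probe sets of called members that went against the chosen one. DUT, which breaks down dUTP, was lower by -0.55 ± 0.10 (adjusted p = 0.0024), with no overlap over the 12 arrays, and RRM1, the large reductase subunit, was at -0.20 and did not pass.

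Of the G1/S regulators, both cyclin E genes were lower in Hs578T. CCNE1 ran from 5.90 to 7.34 (median 6.80) in Hs578T, against 8.23 to 8.59 (median 8.37) in BT-20, a difference of -1.40 ± 0.15 (adjusted p = 0.00017). CCNE2 was lower by -0.65 ± 0.23 (adjusted p = 0.039), with overlap between the lines over the 12 arrays. E2F1 did not pass, at -0.30 ± 0.18 (adjusted p = 0.17).

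Of these 22 genes, 8 lost their call under at least 1 alternative setting, and 14 were called in all 19 alternatives: CDT1, CDC6, ORC6, MCM2, MCM6, MCM7, GINS1, GINS2, GINS3, RFC3, RFC5, LIG1, DUT and CCNE1. TK1 lost its call on leaving out any 1 of the 8 arrays (adjusted p from 0.056 to 0.12), and CCNE2, CDC45, POLA1 and RRM2 each lost theirs on leaving out some single arrays (adjusted p up to 0.12, 0.13, 0.092 and 0.07). The arrays were also centred on the median of 9 housekeeping genes. In every array that median was the value of the housekeeping gene B2M, so this setting rests on 1 gene. B2M ran from 14.35 to 14.48 in Hs578T and from 14.18 to 14.33 in BT-20. So centred, the median of all genes moved to -0.28, and 2 members were higher and 18 lower. TYMS, RRM2, TK1, POLA1 and CDC45 no longer passed. With set within line as a block, 17 of the 41 were called, and ORC1, CDC45, RRM2, TK1 and CCNE2 no longer passed (adjusted p = 0.056, 0.055, 0.059, 0.10 and 0.060). PCNA did not pass in set 1 alone (adjusted p = 0.068).

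Of 44 other replication genes, a list that holds further licensing, polymerase, checkpoint and chromatin assembly factors, 12 were higher and 18 lower in Hs578T, with a median of -0.18. Of all genes tested, 34.4% were higher and 40.2% lower, with a median of -0.09. E2F7 and E2F8, repressors of the E2F family, stood at opposite ends, with 3.37 ± 0.12 and -3.03 ± 0.18 (adjusted p = 5.8e-07 and 8.9e-06). ORC2, a subunit of the origin recognition complex, was lower by -1.80 ± 0.11, and SLBP, which binds histone mRNA, by -1.31 ± 0.09 (adjusted p = 8.4e-06 and 1.3e-05).

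The lines also differed in their markers, with values that moved with every difference above and whose part in it was not tested. The median of 10 epithelial markers was 2.70 to 3.17 in Hs578T and 12.8 to 13.1 in BT-20, and that of 10 mesenchymal markers 12.7 to 13.3 in Hs578T and 2.81 to 3.17 in BT-20. The leukocyte gene PTPRC stayed at or below 3.19 in all arrays, while the 3 endothelial markers were split. CDH5, an endothelial cadherin, was at 2.62 to 2.69 in Hs578T and 7.29 to 9.48 in BT-20, PECAM1 at 4.08 to 6.69 in Hs578T and 2.56 to 2.97 in BT-20, and VWF at or below 2.37 in all arrays. Array medians lay between 3.01 and 3.09 and the share of probe sets at 5 or above between 33.9% and 35.0%. In such cultures, fewer cells with an mRNA and less of it per cell cannot be told apart.

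**Figure D3:**
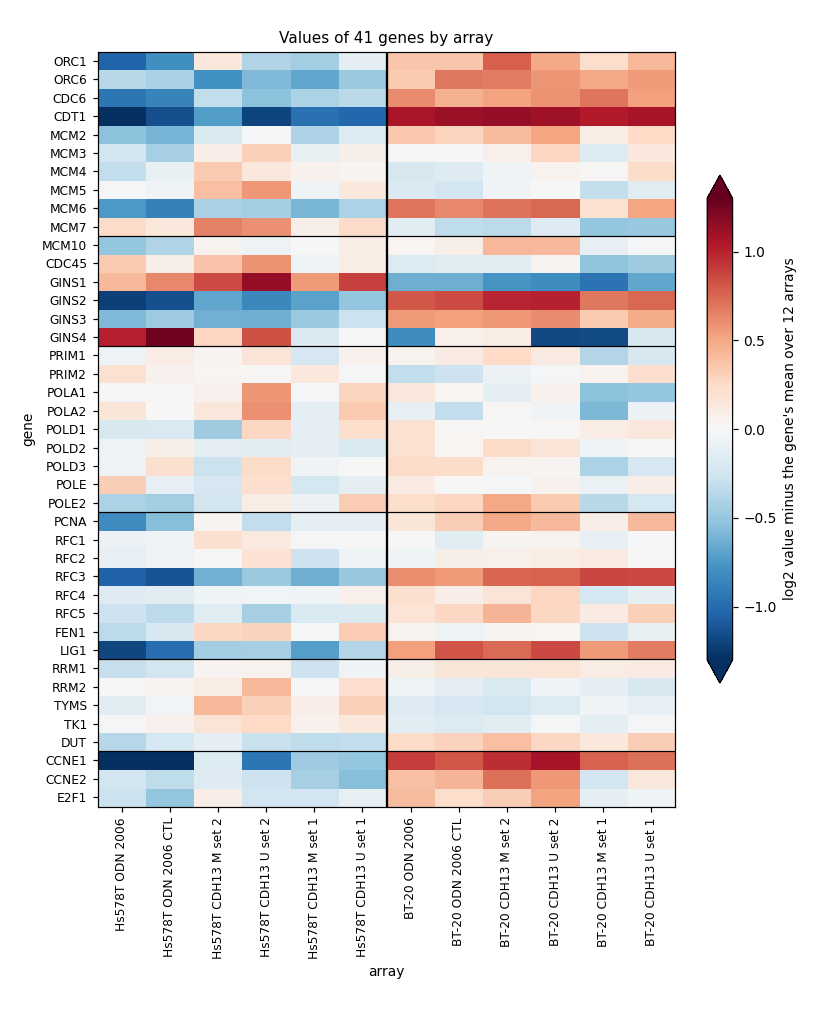
Log2 value minus the gene's own mean over 12 arrays, for the 41 genes (rows, by role) and the 12 arrays (columns, Hs578T left of BT-20 and ODN arrays left of CDH13 arrays); values past the ends of the colour scale take the end colour. The lines differ in opposite directions for GINS1 and GINS2, and CCNE1, LIG1 and RFC3 are lowest in the Hs578T ODN arrays.

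CDH13 M was set against CDH13 U, the comparison that the study's design names. None of the 41 genes passed within a line, with the lines joined or for the difference between lines, and 0 of 10410 genes did (0.0%, limma). At an unadjusted p under 0.05, 1 member was lower and 0 higher in Hs578T, 0 differed in BT-20, 1 was lower over both lines and 0 differed between lines. Of all genes, 3.54% were lower and 3.0% higher in Hs578T, 0.749% and 0.922% in BT-20, 2.74% and 2.48% with the lines joined and 1.47% and 1.01% in the difference. The member lower in Hs578T and over both lines was POLD1, the catalytic subunit of polymerase delta, with 7.95 and 7.61 in Hs578T cells given CDH13 M in sets 1 and 2, against 8.30 and 8.34 in those given CDH13 U. These arrays did not overlap, which does not set POLD1 apart. In both sets of Hs578T, 22 of the 41 members were lower with CDH13 M, beside 35.7% of all genes. In both sets 6 members were higher, beside 28.4% of all genes. The POLD1 difference was -0.54 ± 0.15 (limma, adjusted p = 0.68). These fits did not pair CDH13 M with CDH13 U by set, though deviations within a set correlated at 0.599 in Hs578T and 0.595 in BT-20. Their SE and p-values therefore take in the spread between sets. With set as a block, no member passed either. In BT-20, POLD1 had 8.17 and 8.08 with CDH13 M, against 8.22 and 8.09 with CDH13 U.

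Small differences nevertheless leaned to 1 side. With CDH13 M, 27 of 41 genes were lower in Hs578T, 34 in BT-20 and 32 over both lines, with medians of -0.10, -0.08 and -0.09 (log2, CDH13 M minus CDH13 U). Over all genes the medians were -0.01, 0.00 and -0.01. The lean was wider in set 1. In set 2, 22 of 41 members were lower with CDH13 M in Hs578T and 25 in BT-20, with medians of -0.02 and -0.03. In set 1 it was 35 in each line, with medians of -0.17 in Hs578T and -0.11 in BT-20. Of all genes, 50.4% in Hs578T and 54.0% in BT-20 were lower in set 2, and 56.9% and 47.9% in set 1.

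On leaving out 1 array the median ranged from -0.17 to -0.01 in Hs578T, from -0.20 to 0.07 in BT-20 and from -0.14 to -0.04 over both lines, with CDH13 M and CDH13 U then unequal in sets. The BT-20 value of 0.07 and the Hs578T value of -0.01 each came without the line's CDH13 M array of set 1. Within sets, all 4 medians were negative. In all 4 pairs, 11 members were lower with CDH13 M: MCM2, MCM3, MCM5, CDC45, POLA1, POLD1, POLE, RFC4, LIG1, RRM1 and TK1. Of all genes, 12.1% were lower in all 4. Members are not independent of each other, and no test was made of these counts. CCNE1, among the widest, had 7.34 in the CDH13 M array and 6.58 in the CDH13 U array of Hs578T set 2, and 7.04 and 7.01 in those of set 1.

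**Figure D4:**
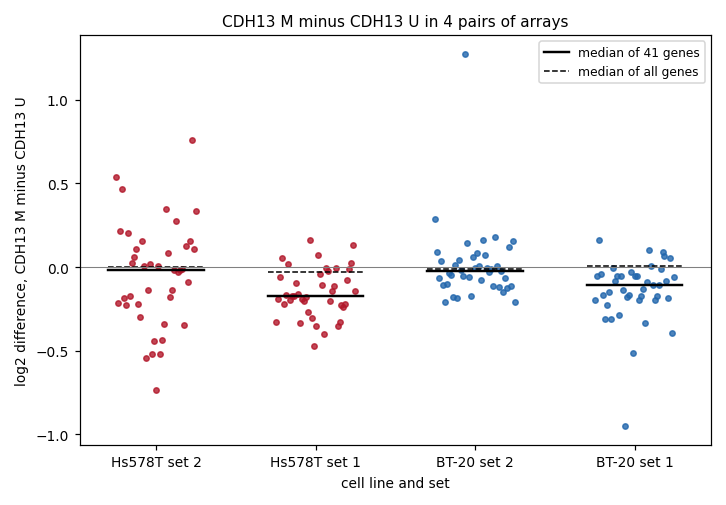
Log2 difference between the CDH13 M and the CDH13 U array in each line and set, 1 point per gene for 41 genes, with their median (solid line) and the median of all genes (dashed line). The median lies furthest below 0 in Hs578T set 1, at -0.17, and nearest to it in Hs578T set 2, at -0.02.

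ODN 2006 was set against ODN 2006 CTL over both lines, to ask whether the CpG letters changed these genes. None of the 41 passed, none had an unadjusted p under 0.05 (beside 3.36% lower and 1.29% higher of all genes), and 1 of 10543 genes passed (0.00948%, limma). Of the members, 20 were higher and 21 lower, with a median of -0.01, beside -0.06 over all genes. POLE, the catalytic subunit of polymerase epsilon, had the smallest p, with 7.13 in Hs578T and 6.92 in BT-20 under ODN 2006, against 6.72 in Hs578T and 6.83 in BT-20 under ODN 2006 CTL (0.26 ± 0.15, adjusted p = 0.999). With 1 array per line and treatment, the fit takes its spread from the CDH13 arrays.

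The ODN arrays were then set against the CDH13 arrays of set 2, which share their array batch. The kinds of oligonucleotide differ in sequence, strandedness and chemistry, and no set number stands on the ODN arrays in the labels, so that these and the culture cannot be told apart. In this fit the ODN array and the ODN control array of a line were taken as replicates. So were its CDH13 M and CDH13 U arrays of set 2. No treatment was replicated within a line here, so the SE and p-values rest on the spread between unlike treatments. They do not measure the spread between cultures given the same treatment. In Hs578T, 7 of 41 genes were lower with the ODNs and 0 higher (limma), where 9.03% of 10375 genes were called, 5.16% lower and 3.87% higher. At an unadjusted p under 0.05, 19 members (46.3%) were lower and 0 higher, beside 17.8% and 11.6% of all genes. A negative difference was found for 34 of 41, with a median of -0.32, beside -0.06 over all genes.

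CCNE1, cyclin E1, had the largest difference. Its values were 5.90 with ODN 2006 and 5.99 with ODN 2006 CTL in Hs578T, against 7.34 with CDH13 M and 6.58 with CDH13 U. Both ODN arrays lay below both CDH13 arrays, and the difference was -1.01 ± 0.23, a 0.496-fold level (adjusted p = 0.045). Among the lagging strand and loader genes, LIG1 had 6.56 and 6.76 in the ODN 2006 and ODN 2006 CTL arrays, against 7.29 and 7.31 with CDH13 M and CDH13 U (-0.64 ± 0.14, adjusted p = 0.038). FEN1, the flap nuclease, had 10.43 and 10.56 in the ODN arrays, against 11.04 and 11.07 (-0.56 ± 0.11, adjusted p = 0.031). RFC3 had 9.54 and 9.47 in the ODN arrays, against 9.96 and 10.10 (-0.53 ± 0.10, adjusted p = 0.033). In each of these genes the ODN arrays lay below the CDH13 arrays.

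Of the helicase genes, MCM5 had 10.70 and 10.68 in the ODN arrays, against 11.12 and 11.29 with CDH13 M and CDH13 U (-0.51 ± 0.11, adjusted p = 0.037). MCM10, which assists helicase activation, had 8.03 and 8.15, against 8.58 and 8.47 (-0.44 ± 0.10, adjusted p = 0.0499). The other MCM10 probe sets were lower by less, at -0.23 and -0.11. The other MCM ring genes were all negative, from -0.54 for MCM3 to -0.38 for MCM6, with unadjusted p under 0.05 and adjusted p from 0.053 to 0.076. TYMS had 12.99 and 13.09 in the ODN arrays, against 13.56 and 13.44 (-0.46 ± 0.11, adjusted p = 0.046). The largest positive difference was that of GINS4, with 9.25 and 9.49 in the ODN arrays, against 8.52 and 9.07 (0.58), on its unsteady probe set, and primase and polymerase genes had 4 positive and 5 negative differences, from -0.36 to 0.14.

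None of the 7 calls was steady. The count was 0 without the Hs578T CDH13 M array of set 2, 0 without the Hs578T ODN 2006 array and 0 without any 1 of the 4 BT-20 arrays, which enter only through the shared spread. It was 2 without the ODN 2006 CTL array and 9 without the CDH13 U array of set 2. The differences themselves kept their sign under all 15 alternatives, with medians of the 41 genes from -0.37 to -0.27. Both ODN arrays lay below both CDH13 arrays of set 2 for 27 of 41 genes (65.9%), beside 32.7% of all genes, and below all 4 CDH13 arrays of both sets for 19 (46.3%), beside 26.3% of all genes. Against set 1 alone, which was run in the other array batch, 29 of 41 were lower, with a median of -0.14 beside -0.11 over all genes. Against that set CCNE1 differed by -1.08, LIG1 by -0.54, RFC3 by -0.52, MCM10 by -0.49, FEN1 by -0.43, TYMS by -0.28 and MCM5 by -0.08.

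In BT-20, none of the 41 genes passed in the same comparison, and 0 of 10375 genes did (0.0%, limma). At an unadjusted p under 0.05, MCM10 (-0.37 ± 0.10) and PRIM2 (-0.26 ± 0.10) were lower and no member was higher, which is 4.88% lower, beside 2.21% lower and 2.94% higher of all genes. There were 32 of 41 negative differences, with a median of -0.10, beside 0.00 over all genes. CCNE1 had 8.42 with ODN 2006 and 8.32 with ODN 2006 CTL, against 8.48 with CDH13 M and 8.59 with CDH13 U. Against set 1 the sign turned: 31 of 41 were higher in the ODN arrays, with a median of 0.07, beside -0.04 over all genes, of which 56.6% were lower.

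The difference between the lines in this comparison was tested itself. No member passed, and 28 of 10375 genes did (0.27%, limma), 0.202% higher and 0.0675% lower. At an unadjusted p under 0.05, 7 members (17.1%) had a more negative difference in Hs578T and 1 (2.44%) a more positive one, beside 9.86% and 6.13% of all genes. FEN1 had the smallest p (-0.52 ± 0.15, adjusted p = 0.20), and CCNE1 was at -0.85 ± 0.33 (adjusted p = 0.28). So the 7 calls in Hs578T were not shown to differ from BT-20.

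**Figure D5:**
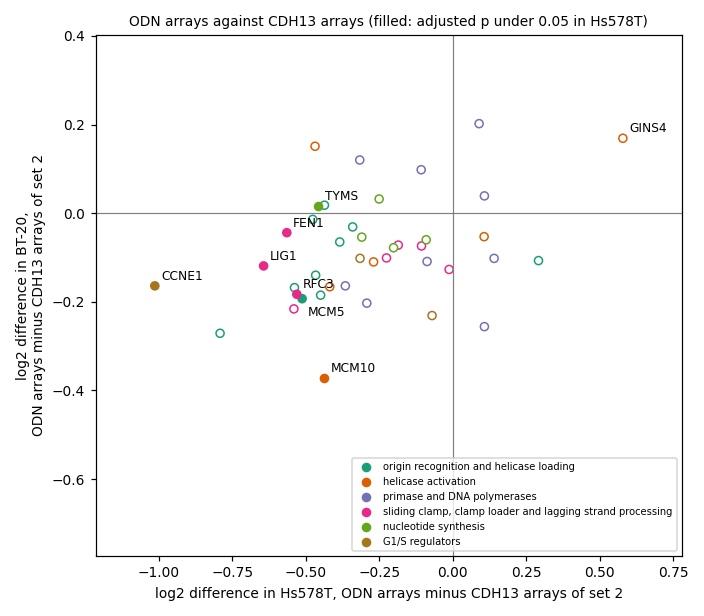
Log2 difference of the ODN arrays from the CDH13 arrays of set 2 for the 41 genes, in Hs578T (x axis) and in BT-20 (y axis), coloured by role; filled points passed the adjusted p threshold of 0.05 in Hs578T. Most points lie left of 0, with CCNE1 furthest at -1.01, and the spread in BT-20 is narrower, from -0.37 to 0.20.

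Of the 44 other replication genes, 3 were lower and 0 higher with the ODNs in Hs578T, with a median of -0.24. Of all genes, 5.16% were lower and 3.87% higher, with a median of -0.06. The 3 calls were not followed through the alternatives. The genes were NASP, a histone chaperone, at -0.71 ± 0.10, ASF1B, another histone chaperone, at -0.96 ± 0.20, and GMNN, the inhibitor of CDT1, at -0.56 ± 0.13 (adjusted p = 0.017, 0.039 and 0.049). RNASEH2A, a subunit of the enzyme that cuts RNA in RNA-DNA hybrids, was at -0.39 ± 0.10 (adjusted p = 0.061). In BT-20, 0 of the 44 passed by limma, and at an unadjusted p under 0.05 1 was higher and 0 lower, beside 2.94% and 2.21% of all genes.

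Set 2 was set against set 1 to measure how far the CDH13 arrays moved between array batches, which cannot be told apart from the cultures of each set. In this fit the CDH13 M and CDH13 U arrays of a set formed 1 group per line. Their deviations from the treatment means correlated at 0.599 in Hs578T and 0.595 in BT-20. They are not independent replicates of a set, so the p-values do not measure the spread between sets. None of the 41 genes passed in either line (limma), where 2.74% of 10410 genes passed in Hs578T, 0.682% higher and 2.06% lower, and 2.5% in BT-20, 0.663% higher and 1.83% lower. The members leaned upwards in set 2. They were higher for 29 of 41 genes in Hs578T, with a median of 0.12, and for 34 in BT-20, with a median of 0.19, while all genes had medians of -0.05 and -0.04.

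At an unadjusted p under 0.05, 3 members (7.32%) were higher in set 2 in Hs578T and 11 (26.8%) in BT-20, and 0 lower in either. Of all genes, 5.76% were higher and 12.8% lower in Hs578T, and 6.28% higher and 12.5% lower in BT-20. In BT-20 MCM10 had the smallest p, with 8.96 and 8.95 in the CDH13 M and CDH13 U arrays of set 2, against 8.43 and 8.52 in those of set 1 (0.48 ± 0.10, adjusted p = 0.064). POLE2, the second subunit of polymerase epsilon, had 7.71 and 7.54 in set 2, against 6.84 and 6.98 in set 1 (0.71 ± 0.18, adjusted p = 0.091). CCNE2 had 10.94 and 10.79 in set 2, against 9.97 and 10.37 in set 1 (0.70 ± 0.15, adjusted p = 0.068). In each of the 3 genes the sets did not overlap, as in most members in BT-20, so this does not set them apart. How many of all genes did so was not counted. In Hs578T, MCM7 had 11.52 and 11.46 in set 2, against 10.94 and 11.12 in set 1 (0.46 ± 0.12, adjusted p = 0.10). The difference between lines passed for no member and for 1.28% of genes (limma), 0.548% higher and 0.73% lower, with 5 members (12.2%) at an unadjusted p under 0.05, all with a lower difference in Hs578T, beside 7.93% lower and 7.21% higher of all genes. The comparisons with set 2 share its arrays, so a high value there enters both.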

How the data were processed

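The data were 12 Affymetrix HG-U133 Plus 2.0 arrays, 6 of each line. The submitters' processing notes name GCRMA and R 2.4, and the deposited values are log2 expression values per probe set, background-corrected, normalized and summarized by the authors. The notes do not say whether the arrays were normalized together. The table held 54675 probe sets, of which 41097 name a single gene, 1801 name several genes and 11777 name none in the annotation used, and symbols were updated through RefSeq gene IDs for 41043. Each gene was read from its brightest single-gene probe set over 12 arrays.

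Genes that reached 5 in at least 2 of the arrays compared were fitted with limma 3.58.1 in R 4.3.3 on group means, with contrasts, eBayes and Benjamini-Hochberg adjustment over all genes tested (threshold 0.05). The ODN 2006 fit used 12 arrays and the other fits 8. The 41 members, the other lists and the comparisons were chosen with earlier results of these data known. Any member could be named, and of the other replication genes up to 4 per comparison with the smallest p. On simulated data, 82% of genes changed by a log2 size of 1 were recovered for Hs578T against BT-20, 56% for CDH13 M against CDH13 U in Hs578T, 46% for ODN 2006 against ODN 2006 CTL and 78% for the ODNs against set 2 in Hs578T. For the differences between lines, recovery at that size was lower. It was 9% for CDH13 M against CDH13 U, 47% for the ODNs against set 2 and 40% for set 2 against set 1. The simulated arrays had independent noise, few changed genes and no effect of set. The real arrays differ in this, so recovery in them may differ.

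The alternatives were another filter, another summary of probe sets, quantile normalization, housekeeping centring, raised dim values, a trended robust fit, a block for set and leaving out each array. Deviations of CDH13 M and CDH13 U arrays of the same set correlated at 0.599 in Hs578T and 0.595 in BT-20, across 10410 genes, which are not independent. They correlated at 0.098 and 0.111 between lines. The labels give the set numbers. The number of arrays limits the precision.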

Additional observations from a re-analysis of the deposited data

How the results depend on the processing

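Of 12 counts of called members, 9 stayed within 1.5 times under every alternative run. Apart from the count for Hs578T against BT-20, these were 0 in the main fit and in every alternative. For a count of 0 the ratio says nothing about steadiness. For the ODNs against the CDH13 arrays of set 2 in Hs578T, the count of 7 became 11 with the mean of all probe sets, 4 with housekeeping centring, 13 with values under 5 raised to 5 and 18 with a trended robust fit, and it ranged from 0 to 9 on leaving out 1 array. The difference between lines in that comparison ranged from 0 to 1. For set 2 against set 1 in BT-20 the count of 0 became 1 without a filter, with the mean of all probe sets, after quantile normalization, with raised values and with the trended robust fit, and it ranged from 0 to 1 on leaving out 1 array. The cause was not tested. For Hs578T against BT-20 the range was 17 to 22 on leaving out 1 array and 17 to 26 under the other alternatives, and among the 22 called members 1 value turned, that of POLA1, at -0.09 in the ODN arrays alone.

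With the set as a replicate block the pairing gave 17 called members between the lines, against 22, and 0 in all 4 contrasts of CDH13 M with CDH13 U. The mean of all probe sets tested 39 members. With 2 arrays or fewer per group, the spread came from few arrays, and recovery of changes under a log2 size of 1 was not simulated.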
